A study of Mus musculus with 6 samples.

Results

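The genes described here encode glycosyltransferases and sulfotransferases that build, extend and cap glycans, and were chosen by symbol alone: every mouse gene whose symbol starts with Galnt, Gcnt, B3gnt, B3galt, B4galt, Fut, St3gal, St6gal, St6galnac, St8sia or Chst followed by a digit. The rule took 87 genes of the gene table, of which 84 had a probe on the array and 76 were tested, among 14847 genes tested in all. RNA from whole uteri at gestation day (GD) 3.5 of natural pregnancy was hybridized to 6 Agilent one-colour arrays, 3 from *Sox17f/f* mice and 3 from *Sox17ed/ed* mice. Both genotypes carried both copies of *Sox17* as the floxed allele, and all females had been mated at 8 to 10 weeks of age. The *Sox17f/f* mice, whose genotype field in the labels reads WT, had no recombinase. The *Sox17ed/ed* mice also had 1 copy of *Ltf icre*, a recombinase driven from the lactoferrin locus that is active in the uterine epithelium from puberty onward. The uteri were collected without embryos.

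The luminal surface of the uterus is coated by mucins and other glycoproteins, and an embryo has to pass this coat to attach. Mucin-type O-glycans start when a Galnt enzyme adds N-acetylgalactosamine to a serine or threonine, after which Gcnt enzymes open branches, B3gnt, B3galt and B4galt enzymes lengthen the chains, and Fut, sialyltransferase and Chst enzymes cap them with fucose, sialic acid and sulfate. Several of these families also act on N-glycans, glycolipids and chondroitin. Fucosylated and sulfated caps are known as ligands of selectins, and blood group and Lewis antigens have long been studied on the receptive endometrium.

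Signals are given as log2 of the processed spot intensity after quantile normalization, and a difference is *Sox17ed/ed* minus *Sox17f/f* on that scale, from limma. Adjusted p-values are Benjamini-Hochberg values over the 14847 genes. A gene is written as higher or lower where the unadjusted p was under 0.01 and the fold change at least 1.4, the thresholds named in the study's methods. *Sox17* itself, the check of the labels, read 12.21, 12.07 and 12.22 on the *Sox17f/f* arrays and 9.75, 9.59 and 9.81 on the *Sox17ed/ed* arrays. The difference was -2.45 (SE 0.09, adjusted p = 2.66e-05 by limma), and the exact permutation test over the 6 arrays gave p = 0.1, two-sided, the smallest it can give. Each genotype lay in its own row of 1 slide, so slide position and genotype cannot be told apart, and precision is limited by having 3 arrays per genotype.

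Between the genotypes, 20 of the 76 glycan enzyme genes (26.3%) differed past the thresholds: 12 were higher and 8 lower in the *Sox17ed/ed* uteri. The share over the whole table was 12.5%, with 6.04% higher and 6.47% lower. The median absolute log2 difference was 0.34 over the enzyme genes and 0.17 over all genes, whereas the median signed difference was -0.04 and 0.00. All 20 had an adjusted p under 0.05, the largest being 0.0361, and 14 of them differed at least 2-fold. Of the 20, *Galnt9*, *Chst9*, *St6galnac5* and *St8sia5* were kept for testing only through the genotype in which they were bright. Their p-values rest on signals near background in the other genotype. These 4 are included in the counts of this paragraph and in the counts by role below, and are given below as bounds without p-values. *Fut9* and *B3galt5* were well above background on 1 *Sox17f/f* array each and on all 3 *Sox17ed/ed* arrays. The filter was thus met by their brighter genotype, and their p-values also rest partly on signals near background. At an adjusted p under 0.05 with no fold threshold, 28 of the 76 (36.8%) passed, 16 higher and 12 lower, against 18.9% of all genes (8.84% higher and 10.1% lower). On 39 of the 76 (51.3%) the arrays of the genotypes did not overlap, against 40.6% of all genes, and the 20 that passed the thresholds were among these 39.

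**Figure D1:**
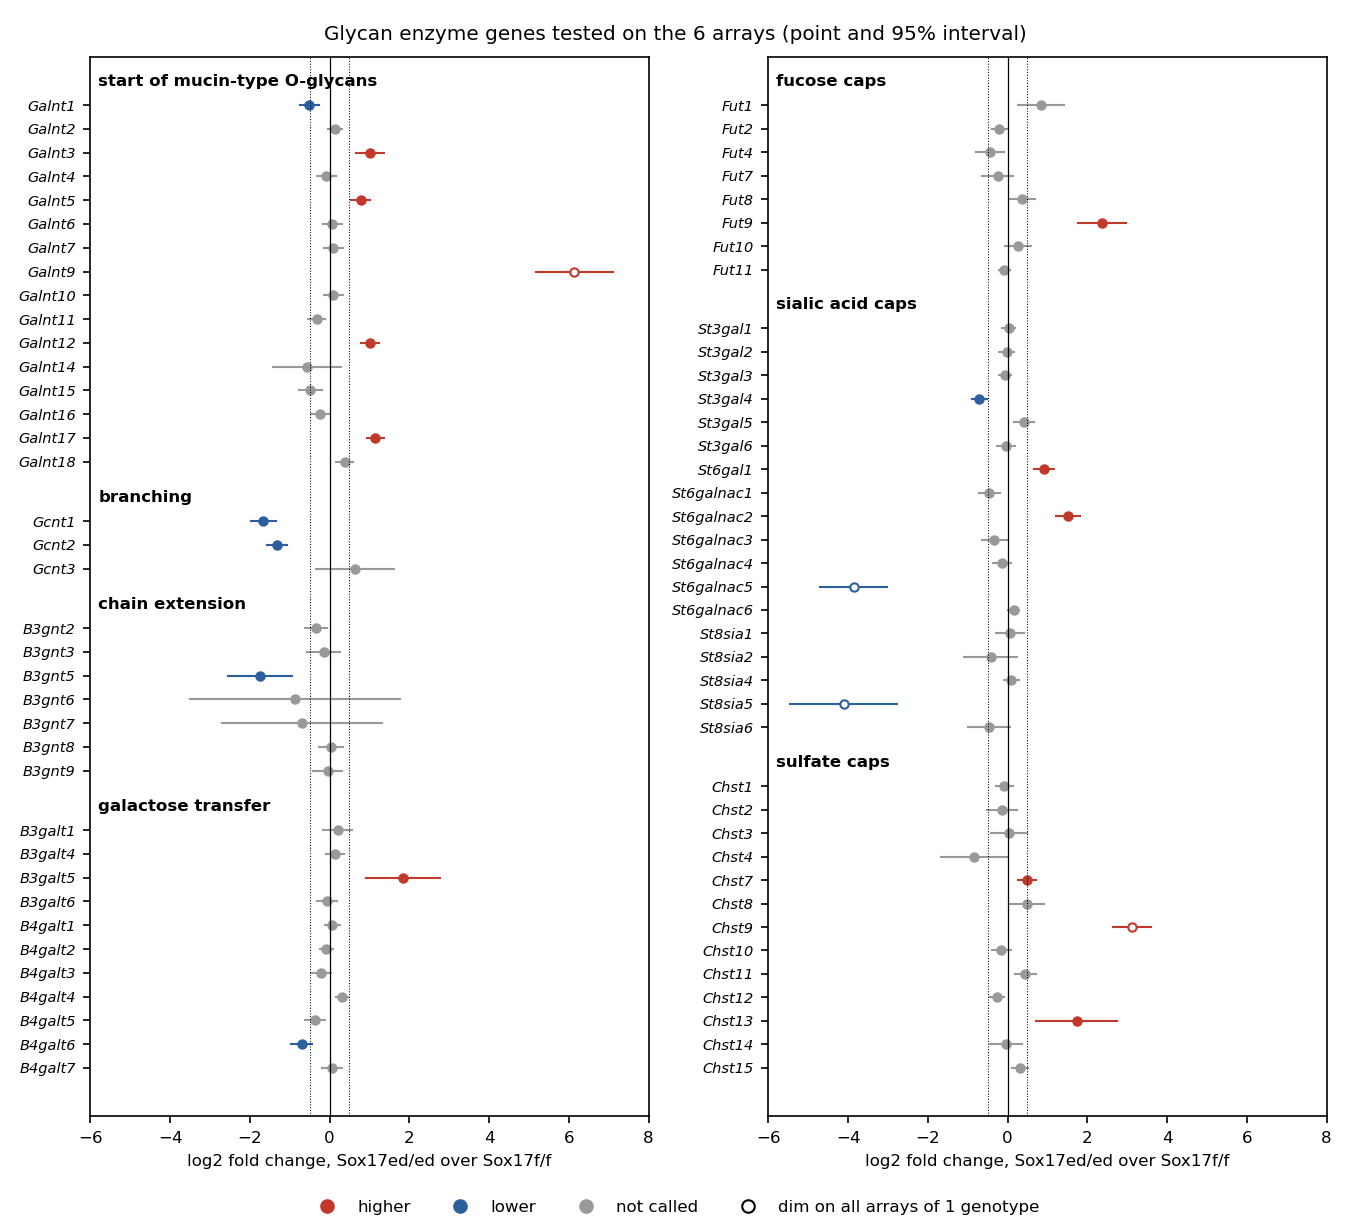
The log2 fold change of each of the 76 glycan enzyme genes tested (points) is plotted with its 95% interval (lines), grouped by role, with dotted lines marking the fold threshold of 1.4 up and down. The 12 higher genes (red) include 5 Galnt genes, the 8 lower genes (blue) include both *Gcnt1* and *Gcnt2*, and the 4 open points, from *Galnt9* at 6.14 to *St8sia5* at -4.11, are genes near background on every array of 1 genotype, whose fold is given in the text as a bound.

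Of 16 Galnt genes tested, grouped here by family name as the start of mucin-type O-glycans, 5 were higher and 1 was lower (37.5% past the thresholds, against 12.5% of all genes). The 5 higher genes include *Galnt9*, given as a bound. *Galnt9*, a family member best known from brain, read 2.22, 2.22 and 3.69 in the *Sox17f/f* uteri, where no array was well above background, and 8.92, 8.77 and 8.86 in the *Sox17ed/ed* uteri. It was therefore at least 33.4-fold higher in the *Sox17ed/ed* uteri, and the arrays lay far apart. Such a bound sets the mean of the brighter genotype against a floor for the dimmer one, the mean over its arrays of the lowest signal well above background or, where that is higher, the gene's own signal. That lowest signal is taken over all probes of an array, and some probes above it were not well above background. Each bound given here therefore holds only against this floor. *Galnt17* read 8.22, 7.93 and 8.10 against 9.25, 9.23 and 9.22, a difference of 1.15 (SE 0.09, adjusted p = 0.000428 by limma), with the 3 *Sox17ed/ed* arrays nearly level. *Galnt12*, which is known in the digestive tract, read 9.32, 9.55 and 9.57 against 10.54, 10.40 and 10.51, a difference of 1.0 (SE 0.09, adjusted p = 0.00096).

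*Galnt3*, whose product glycosylates the phosphate hormone FGF23 as well as epithelial mucins, read 7.11, 7.29 and 6.85 in the *Sox17f/f* uteri and 8.18, 7.89 and 8.23 in the *Sox17ed/ed* uteri. Its difference was 1.01 (SE 0.15, adjusted p = 0.00547 by limma), with no overlap between genotypes. *Galnt5* read 5.45, 5.11 and 5.31 against 6.07, 6.14 and 6.01, and was 0.78 higher (SE 0.10, adjusted p = 0.0038). The broadly expressed *Galnt1* was the only one of the 16 that was lower past both thresholds; *Galnt11* (-0.33) and *Galnt15* (-0.48) also had an adjusted p under 0.05 by limma, under the fold threshold. It read 9.1, 9.28 and 9.07 against 8.76, 8.53 and 8.63, a difference of -0.51 (SE 0.10, adjusted p = 0.0152). The other 10 Galnt genes tested lay between -0.56 and 0.38, with 5 above and 5 below 0. *Galnt1* no longer reached the fold threshold without *Sox17f/f* replicate 2 (-0.44), without *Sox17ed/ed* replicate 2 (-0.45) or after normexp background correction (-0.35), and *Galnt5* (0.37) also missed it after that correction.

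Of 3 branching genes tested, 2 were lower and 0 higher (66.7%, against 12.5% of all genes). *Gcnt1* makes the core 2 branch on which selectin ligands are built, and *Gcnt2* makes the I branch of poly-N-acetyllactosamine chains. *Gcnt1* read 10.87, 10.97 and 10.70 in the *Sox17f/f* uteri and 8.98, 9.22 and 9.36 in the *Sox17ed/ed* uteri, a 3.16-fold fall (difference -1.66, SE 0.12, adjusted p = 0.000408 by limma). *Gcnt2* read 10.31, 10.47 and 10.20 against 9.12, 9.05 and 8.86, a 2.48-fold fall (difference -1.31, SE 0.10, adjusted p = 0.000511). For both genes every *Sox17ed/ed* array lay below every *Sox17f/f* array. *Gcnt3*, the branching enzyme typical of mucus-secreting epithelia, read 7.83, 7.68 and 9.14 against 8.95, 8.53 and 9.11. Its genotypes overlapped, with *Sox17f/f* replicate 3 above all the *Sox17ed/ed* arrays, and the difference of 0.64 (SE 0.40, adjusted p = 0.316) did not pass. Without *Sox17f/f* replicate 3 it was 1.11 and passed. That array was the outermost of its genotype for 32 of the 76 genes; across the whole table it was so for 40.9%.

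Among the 7 chain extension genes tested, *B3gnt5* alone passed (14.3%, near the 12.5% of all genes). It encodes the enzyme that commits lactosylceramide to the lacto- and neolacto-series of glycolipids. Its signal was 7.44, 7.17 and 8.49 in the *Sox17f/f* uteri and 5.91, 6.05 and 5.89 in the *Sox17ed/ed* uteri. The difference was -1.75 (SE 0.33, adjusted p = 0.0154 by limma), with a wide spread among the *Sox17f/f* arrays. After normexp correction it was -1.07. Another probe of *B3gnt5* was well above background on none of the 6 arrays (means 2.43 in *Sox17f/f* and 2.27 in *Sox17ed/ed*) and was not tested. The other 6 B3gnt genes lay between -0.86 and 0.03.

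Galactose transfer held 1 higher and 1 lower gene of 11 tested (18.2%, against 12.5% of all genes). *B3galt5*, which makes type 1 chains, read 3.55, 3.99 and 5.04 in the *Sox17f/f* uteri, well above background on 1 of the 3 arrays, and 5.80, 6.34 and 5.95 in the *Sox17ed/ed* uteri. The difference was 1.83 (SE 0.38, adjusted p = 0.0217 by limma), and the genotypes did not overlap. It missed the p threshold without *Sox17f/f* replicate 2 (1.72) and without *Sox17ed/ed* replicate 2 (1.66). *B4galt6*, a lactosylceramide synthase, read 9.60, 9.80 and 9.45 against 8.83, 9.01 and 8.91, and fell by 0.70 (SE 0.11, adjusted p = 0.00732). *B4galt1*, which makes most N-acetyllactosamine, read 13.38, 13.36 and 13.54 against 13.48, 13.54 and 13.45. Its genotypes overlapped, with a difference of 0.07 (95% interval -0.12 to 0.25) that was -0.00080 after a shift by the 75th percentile and -0.094 over the mean of its probes. The other galactosyltransferase genes lay between -0.36 and 0.30.

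**Figure D2:**
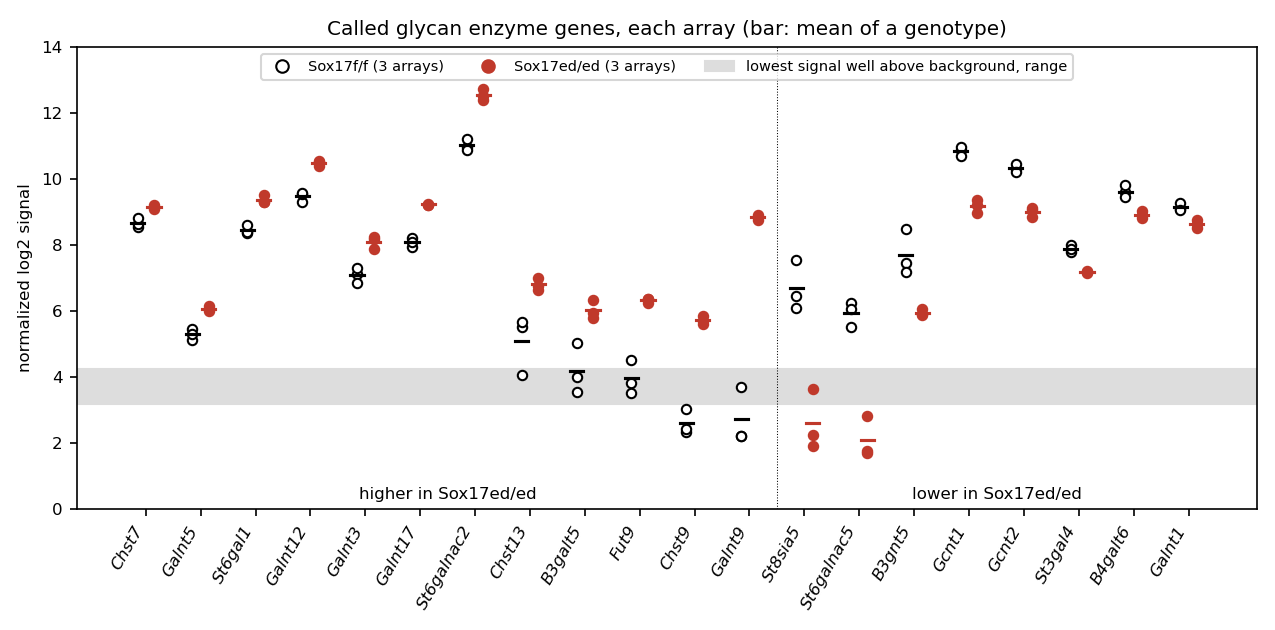
Normalized log2 signal (vertical axis) on each of the 3 *Sox17f/f* arrays (open circles) and 3 *Sox17ed/ed* arrays (filled circles) is plotted for the 20 genes past the thresholds, with a bar at each genotype mean. The grey band spans the lowest signals that were well above background on the 6 arrays (3.19 to 4.25); *Galnt9* and *Chst9* lay at or below it in the *Sox17f/f* uteri, and *St8sia5* and *St6galnac5* in the *Sox17ed/ed* uteri.

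The Fut genes, grouped here as fucose caps, differed at 1 of 8 genes tested (12.5%, the same share as over all genes). *Fut9*, which makes the Lewis x antigen, read 3.82, 3.51 and 4.53 in the *Sox17f/f* uteri, well above background on 1 of 3 arrays, and 6.25, 6.36 and 6.37 in the *Sox17ed/ed* uteri. The difference was 2.37 (SE 0.25, adjusted p = 0.0016 by limma), or 0.88 after normexp correction, and the 3 *Sox17ed/ed* arrays were nearly level above all the *Sox17f/f* arrays. Another probe of *Fut9* failed the filter on dim signals and was not tested (means 2.54 in *Sox17f/f* and 4.38 in *Sox17ed/ed*). *Fut1* and *Fut2* add the fucose of the H antigen, *Fut2* mainly in secretory epithelia. *Fut1* read 4.44, 3.80 and 3.84 against 4.48, 5.16 and 4.92, with the genotypes just apart. Its difference of 0.83 (SE 0.24, adjusted p = 0.0579) did not pass; it was 1.03 without *Sox17f/f* replicate 1 and 1.0 without *Sox17ed/ed* replicate 1, and passed in both. *Fut2* read 6.61, 6.65 and 6.59 against 6.52, 6.29 and 6.41, a difference of -0.21 (95% interval -0.40 to -0.02, adjusted p = 0.12). *Fut4*, another Lewis x enzyme, read 8.76, 9.18 and 8.61 against 8.42, 8.34 and 8.45. Its arrays also lay apart, and the difference of -0.44 (95% interval -0.80 to -0.08, adjusted p = 0.0905) passed without *Sox17f/f* replicate 3 alone, at -0.56.

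Sialic acid caps showed 2 higher and 3 lower genes of 18 tested (27.8%, against 12.5% of all genes). The 3 lower genes include *St6galnac5* and *St8sia5*, given below as bounds. *St6galnac2*, which puts sialic acid on the inner N-acetylgalactosamine of O-glycans, read 10.96, 10.88 and 11.23 in the *Sox17f/f* uteri and 12.72, 12.39 and 12.51 in the *Sox17ed/ed* uteri. It was 2.86-fold higher (difference 1.52, SE 0.13, adjusted p = 0.000596 by limma). *St6gal1*, which caps N-glycan antennae, read 8.36, 8.41 and 8.62 against 9.50, 9.30 and 9.29, a difference of 0.91 (SE 0.10, adjusted p = 0.00215). In both, every *Sox17ed/ed* array lay above every *Sox17f/f* array. *St3gal4*, which adds the sialic acid of sialyl Lewis x, read 7.78, 8.01 and 7.87 against 7.22, 7.15 and 7.17. It was lower by 0.71 (difference -0.71, SE 0.08, adjusted p = 0.00215).

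The other lower sialyltransferase genes, *St6galnac5* and *St8sia5*, act on gangliosides and are best known from brain. *St6galnac5* read 6.23, 6.07 and 5.51 in the *Sox17f/f* uteri and 1.68, 1.75 and 2.80 in the *Sox17ed/ed* uteri. *St8sia5* read 6.47, 7.55 and 6.10 against 2.25, 3.63 and 1.89. Both were near background on all 3 *Sox17ed/ed* arrays, so that *St6galnac5* was at least 3.82-fold lower and *St8sia5* at least 6.50-fold lower. The 13 sialyltransferase genes that did not pass lay between -0.46 and 0.41. In the order of genes along the chromosomes, *St6galnac2* lay next to *St6galnac1*, and *St6galnac5* next to *St6galnac3*. Neither neighbour passed both thresholds. *St6galnac1* was -0.46 (adjusted p = 0.035 by limma), under the fold threshold, with its genotypes apart, and *St6galnac3* was -0.33 (adjusted p = 0.131). *St6galnac1* passed without *Sox17f/f* replicate 3 and without *Sox17ed/ed* replicate 1. On its other, dim probe it was 0.02 (SE 0.55).

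The Chst genes, grouped here as sulfate caps, held 3 higher and 0 lower genes of 13 tested (23.1%, against 12.5% of all genes). The 3 higher genes include *Chst9*, given below as a bound. Groups follow family names, so this one includes chondroitin sulfotransferases. *Chst9*, which sulfates terminal N-acetylgalactosamine, read 2.32, 2.42 and 3.03 in the *Sox17f/f* uteri, where no array was well above background, and 5.86, 5.60 and 5.69 in the *Sox17ed/ed* uteri. It was at least 4.27-fold higher. *Chst13*, a chondroitin 4-sulfotransferase, read 5.50, 5.66 and 4.06 against 6.65, 7.01 and 6.76, a difference of 1.73 (SE 0.42, adjusted p = 0.0361 by limma). *Chst7*, a chondroitin 6-sulfotransferase, read 8.55, 8.62 and 8.83 against 9.1, 9.22 and 9.15, a difference of 0.49 (SE 0.09, adjusted p = 0.015). All 3 had *Sox17ed/ed* arrays above the *Sox17f/f* arrays, but *Chst13* and *Chst7* were close to the thresholds. *Chst13* missed the p threshold without *Sox17ed/ed* replicate 1 (1.80), 2 (1.62) or 3 (1.75) and with no filter on dim probes (1.73), and was 0.89 after normexp correction. Another probe of *Chst13* was well above background on 1 *Sox17f/f* array and no *Sox17ed/ed* array. It was not tested (means 3.65 in *Sox17f/f* and 4.15 in *Sox17ed/ed*). *Chst7* missed the fold threshold without *Sox17f/f* replicate 1 (0.43) or 2 (0.46), without *Sox17ed/ed* replicate 2 (0.46), with the deposited value table (0.48) and after normexp correction (0.39).

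*Chst2* and *Chst4* encode the sulfotransferases that act on selectin ligands. *Chst2* did not pass, with a difference of -0.14 (95% interval -0.51 to 0.24, adjusted p = 0.592 by limma), and was 0.0021 without *Sox17f/f* replicate 2. *Chst4* read 5.73, 5.54 and 5.71 in the *Sox17f/f* uteri and 5.62, 4.24 and 4.59 in the *Sox17ed/ed* uteri, where it was well above background on 2 of the 3 arrays. *Sox17ed/ed* replicate 1 lay within the *Sox17f/f* values and the other 2 arrays below them. The difference of -0.85 (SE 0.34, adjusted p = 0.138) did not pass, and without that array it was -1.23 and passed. The 10 Chst genes that did not pass lay between -0.85 and 0.48.

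Over all roles, 56 of the 76 genes tested did not pass. For 29 of these the 95% interval stayed inside the fold threshold of 1.4 both ways, and for the others it reached past 1.4 on at least 1 side. A further 8 genes had no probe above the filter on dim signals (*B3galt2*, *B3gnt4*, *Chst5*, *Fut4-ps1*, *Galnt13*, *Gcnt4*, *Gcnt7* and *St8sia3*), and 3 had no matched probe (*St6gal2*, *St8sia3os* and *Galnt6os*). Of the 76, 66 were well above background on all 6 arrays. The 4 genes given as bounds passed through the genotype in which they were bright, and with normexp correction, which draws low signals together, their fitted differences were smaller (*Galnt9* 2.65, *Chst9* 0.76, *St6galnac5* -0.94, *St8sia5* -1.43). *B3galt5* was 0.58 under it.

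For 18 of the 76 genes a second probe of the same gene was tested. The sign was shared by both probes of 13. *Gcnt1*, *Gcnt2*, *B4galt6*, *Galnt12*, *Galnt17* and *St6gal1* passed on the brighter probe, which stood for the gene throughout, and had the same sign on the other. On the other probe *Gcnt1* was -1.37, *Gcnt2* -0.76, *B4galt6* -0.69, *Galnt12* 0.89 and *Galnt17* 0.85, and all 5 passed there too. *St6gal1* was 0.38 on its other probe, under the fold threshold. *B4galt5*, a lactosylceramide synthase like *B4galt6* and picked here after its values were seen, was -0.36 on the brighter probe and -1.0 (SE 0.17) on the other, where alone it passed.

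**Figure D3:**
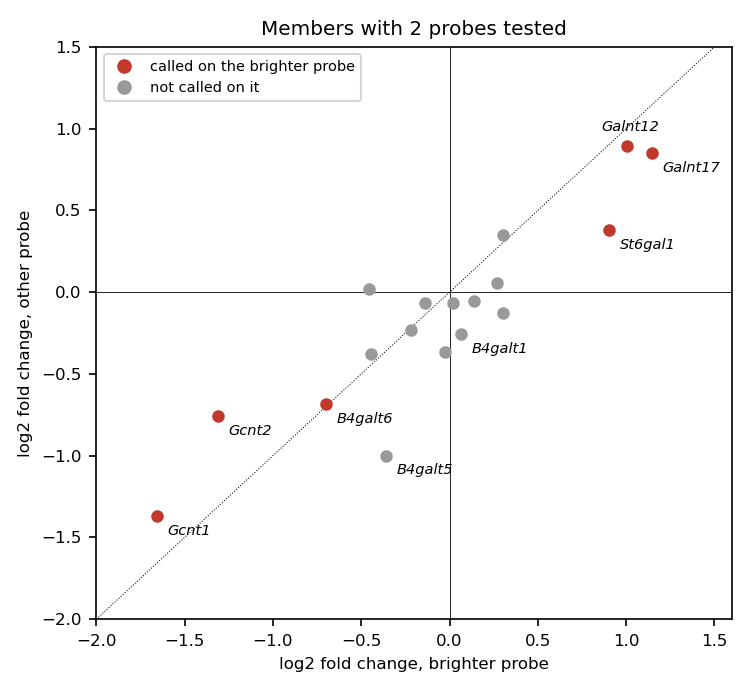
For the 18 genes with 2 probes tested, the log2 fold change of the brighter probe (horizontal axis) is plotted against that of the other probe (vertical axis), with the diagonal dotted. The 6 genes that passed on the brighter probe (red) keep their sign on the other, from *Gcnt1* at -1.66 and -1.37 to *Galnt17* at 1.15 and 0.85, and *B4galt5* lies well below the diagonal.

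The RefSeq promoter table held 86 windows of 250 bases before the start of 65 of these genes, on GRCm38.p6. The SOX core ACAAT, read on both strands (ATTGT on the other), was present in 14 of the 86 windows (16.3%) and in 9086 of 32851 windows of all genes (27.7%). It stood in 2 of 13 windows of 8 higher genes and in 0 of 8 windows of 4 lower genes; the other genes that passed had no window in the table and were not searched. These are the 2 stretches that hold it, with the core in capitals, shown because they are the matches found in those windows; neither core overlapped another motif searched. They are read on the plus strand, at chr16:96273357-96273386, with the core 144 bases before the start of *B3galt5*, and at chr16:23225939-23225968, with the core 70 bases before a start of *St6gal1*.
B3galt5: ctgccggccttcATTGTtcaccccagcttt
St6gal1: gcccgacacaccATTGTccccgtgcactgg
The forkhead motif TGTTTAC (both strands) was in 1 of the 86 windows (1.16%, against 3.17% of all), and the palindromic estrogen response element in 0 of 86 (0.0639% of all). A match describes these letters and not a binding site.

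Other genes of glycan metabolism, which the symbol rule did not take, were tallied in 7 lists. Of 125 tested, 19 passed, 4 higher and 15 lower, where 12.5% of all genes passed (6.04% higher and 6.47% lower). The counts of single lists are to be read against that share, and no list was tested as a set. In mucin-type core and other O-glycan synthesis 1 of 16 passed: *C1galt1*, which makes the core 1 disaccharide that *Gcnt1* branches, fell from 9.08 ± 0.15 to 8.16 ± 0.07 (SD, n = 3 each; difference -0.92, SE 0.09, adjusted p = 0.00146 by limma). In N-glycan branching and processing 0 of 14 passed. Of 7 glycolipid and terminal enzyme genes 3 passed: the glucosylceramide synthase *Ugcg* (-0.71) and the alpha-galactosyltransferase *Ggta1* (-0.73) were lower, and the ganglioside enzyme *B4galnt1* (0.53) was higher.

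Glycosaminoglycan synthesis had 7 lower genes and 1 higher of 28. The hyaluronan synthase *Has1* fell from 8.87 ± 0.42 to 4.68 ± 0.55 (SD, n = 3 each; difference -4.20, SE 0.33, adjusted p = 0.000465 by limma), and was well above background on 2 of the 3 *Sox17ed/ed* arrays. *Has2*, the other hyaluronan synthase that passed, fell by 0.81, whereas the heparan sulfotransferases split, with *Hs3st1* at -1.03 and *Hs3st3a1* at 0.97, and the epimerase *Glce* was at -0.61. Synthesis of sugar and sulfate donors had 4 lower genes and 0 higher of 27. They were *Gfpt2*, at the entry of the hexosamine pathway (-1.25, SE 0.16), the fucose kinase *Fcsk* (-0.82), the UDP-glucose enzyme *Ugp2* (-0.81) and *Gnpnat1* of the hexosamine pathway (-0.55). Of 12 Golgi transporters 1 passed, *Slc35d1*, which was lower by 0.61 (difference -0.61). Of 21 hydrolases 2 were higher, the fucosidase *Fuca2* (1.4, SE 0.11, adjusted p = 0.000543) and the sialidase *Neu3* (0.59).

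**Figure D4:**
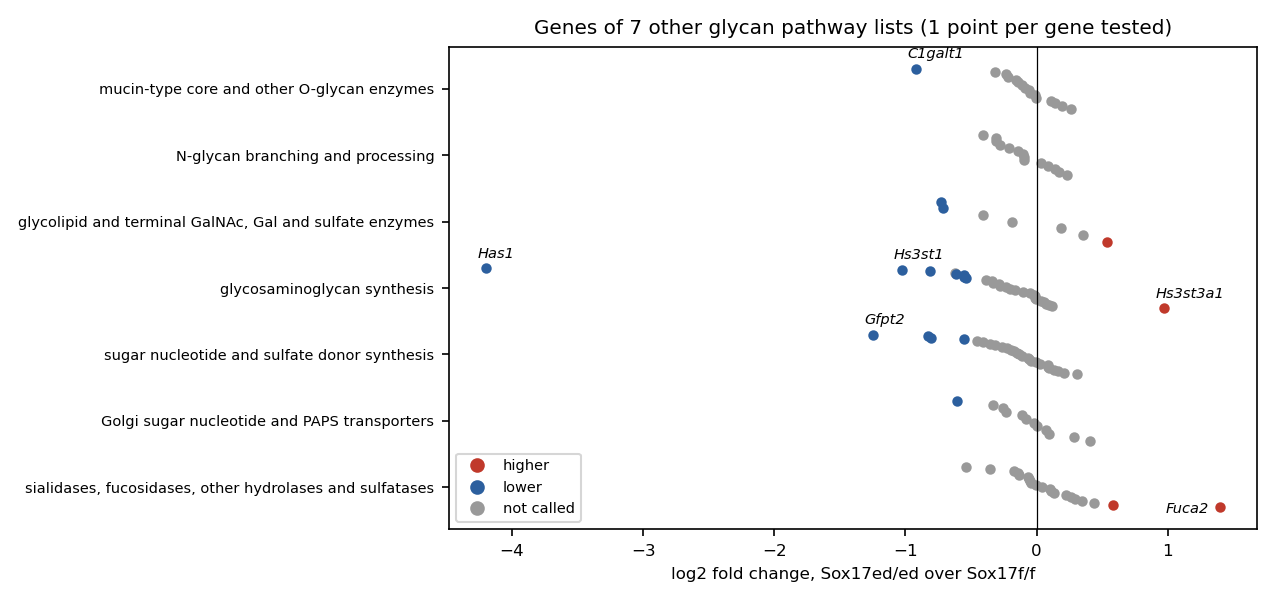
Each point is the log2 fold change (*Sox17ed/ed* over *Sox17f/f*) of 1 of the 125 tested genes in 7 other lists of glycan metabolism; vertical offsets within a list have no meaning. The 15 lower genes (blue) lie mainly in glycosaminoglycan and donor synthesis, the largest lists, with *Has1* at -4.20 farthest from 0. *Fuca2* at 1.4 is the highest of the 4 higher genes (red).

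In RNA of whole uterus, fewer cells of a type and less RNA per cell cannot be told apart, and several cell type markers moved with the genotype. Over all genes 12.5% passed the thresholds, and the marker lists were tallied with no test over a list. Of 5 endometrial gland markers matched, 5 were lower, with summed linear signals of 11231 to 20689 in the *Sox17f/f* uteri and 118 to 177 in the *Sox17ed/ed* uteri. *Foxa2*, the gland transcription factor, was -4.51, and the 3 *Sox17ed/ed* arrays were all near background for *Prss29* and for *Lif*. Of 12 epithelial markers 5 were higher and 2 lower, and their summed signals overlapped (55649 to 58729 against 56397 to 69391). Of 6 stratified squamous markers tested 2 were higher, *Krt5* and *Krt15*, neither of which was well above background on a *Sox17f/f* array, with sums of 2522 to 3037 against 3355 to 3858.

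Stromal markers had 0 of 12 past the thresholds, with sums of 353334 to 361753 against 315079 to 339089. Smooth muscle markers had 1 of 9 lower (506831 to 558642 against 380801 to 457762), and endothelial markers 1 of 9 higher and 1 lower (65726 to 69830 against 49433 to 53938). Leukocyte markers had 1 of 9 tested higher (32341 to 33633 against 37267 to 40594), and neutrophil markers 0 of 4 (1557 to 2026 against 1644 to 2654). Mesothelial markers had 1 of 5 higher and 1 lower (13332 to 14125 against 16113 to 16265). The part of any of these markers in the glycan enzyme values was not tested.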

How the data were processed

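RNA of whole uteri was measured in 6 samples, 1 to an array, and arrays were grouped by the genotype in the labels. For each array the authors deposited a scanner file with its spot intensity (processed signal: background subtracted and trends removed within the array, with no normalization between arrays), spot flags and the median signals of spot and background. The labels name Feature Extraction 9.1 and the file headers 11.0.1.1. A deposited value table of the same arrays was used as an alternative. Spots well above background made up 60.7% to 65.7% of a *Sox17f/f* array and 56.8% to 59.4% of a *Sox17ed/ed* array, and 0 spots were saturated.

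From these files, control spots and 169 to 302 outlier spots per array were left out, log2 intensities were quantile normalized, spots of a probe averaged, and dim probes dropped unless 3 or more of the 6 arrays read them well above background. Accessions tied 26582 of the 55681 probes to 20145 genes of the RefSeq table (GRCm38.p6, used for names and gene order); the brightest probe stood for a gene. Limma 3.58.1 (lmFit, eBayes) in R 4.3.3 was fitted over 14847 genes with genotype alone. The methods name the thresholds and quantile normalization but no test. Python 3.11.15 with pandas 2.3.3, numpy 2.4.6 and matplotlib 3.10.9 was used for tallies, plots and motif searches. The fit was first run on simulated data (seed 1).

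Alternatives were a shift by the 75th percentile, normexp correction (offset 50, on median signals, since mean signals were not among the columns used), no filter, a filter on all 6 arrays, averaging the probes of a gene, an intensity trend, the deposited value table, a replicate block, each array left out, adjusted p under 0.05 and a fold threshold of 2. Genes named are those past the thresholds, those dim on all arrays of 1 genotype, 11 enzymes known from uterine epithelium or selectin ligands, at most 4 genes per direction of each other list, and *Sox17*. The genes, lists and tests were chosen with earlier results of these data known. Labels name separate samples and not separate animals, so p-values measure the spread between these samples.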

Additional observations from a re-analysis of the deposited data

How the results depend on the processing

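All 20 genes kept their sign in every alternative that gave a value and with each array left out. At the same thresholds 15 kept their call in all of these, 5 of which (*Chst9*, *Fut9*, *Galnt9*, *St6galnac5* and *St8sia5*) had no value under the filter on all 6 arrays. Genes called were 20 of 76 under the 75th percentile shift (12.5% of all genes), 17 of 76 under normexp (10.3%), 19 of 84 with no filter (9.36%), 14 of 66 with probes above background on all 6 arrays (11.9%; *B3galt5* was also not tested there), 21 of 76 over the mean of probes (12.4%), 20 of 76 with an intensity trend (12.7%) and 20 of 76 with the deposited values (12.3%; *Galnt15* in place of *Chst7*). With an array left out, 18 to 23 were called, 10 to 13 higher and 8 to 10 lower; the other lists gave 3 to 5 higher and 13 to 15 lower, and 11.2% to 13.7% of all genes passed. Other list genes higher were 2 under normexp and 8 at an adjusted p under 0.05, where 18.9% of all genes passed. At a fold threshold of 2, 14 enzyme genes were called, 5 of them lower (*B4galt6*, *Chst7*, *Galnt1*, *Galnt5*, *St3gal4* and *St6gal1* were lost), with 1 higher and 3 lower in the other lists and 5.50% of all genes. *B4galt1* turned to -0.00080 under the shift and to -0.094 over the mean of probes, and *Chst2*, at -0.21 to 0.0021 with an array left out, turned without *Sox17f/f* replicate 2.

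Same-numbered arrays did not deviate together (correlations 0.06, -0.11 and -0.00), and differently numbered arrays gave -0.08 to 0.08. So few arrays cannot exclude a pairing, and the main fit used none. With the replicate block 20 genes were called, 12 higher and 8 lower, with 4 higher and 15 lower in the other lists and 12.1% of all genes. Signals near background limit the fold changes of dim genes, and 3 arrays per genotype limit the rest.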
